A study of Mus musculus with 4 samples.

Results

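Bone morphogenetic proteins (BMPs), the Smads that carry their signal and the ID genes that answer it were examined in 4 mouse tumours. The labels name no organ, but hepatocyte markers such as Alb were abundant in every tumour. The 10 genes were chosen by symbol: the ligands Bmp2, Bmp4 and Bmp6, the receptor-regulated Smads Smad1, Smad5 and Smad9, the inhibitory Smad6, and the target genes Id1, Id2 and Id3. Where a symbol had several transcript rows, the row with most counts on average over the tumours stood for it, and 24063 gene symbols had a row. Of these, 9 reached a mean of at least 1 CPM (counts scaled to library size), as did 13129 genes in all. Bmp4 did not, and Bmp6 did so only through tumour 10.

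The series comprised poly-A RNA libraries from 4 tumours, numbered 1, 5, 9 and 10, all labelled as overexpressing MYC and PMEPA1, with the strain written as C57BL6/J in the titles and as C57BL/6 in the strain field. DNA was given by the hydrodynamic tail vein route, which carries it mainly into hepatocytes. MYC drives growth, and PMEPA1 is a membrane protein that restrains TGF-beta and related Smad signalling. No untreated or control group was analysed here, so no comparison between conditions was possible and the spread between tumours was the measurement. The labels give no age, no promoter for the delivered genes and no statement that each tumour came from its own animal, and they list 8 to 10 passages, a term of cell culture. The spread, and every p-value, may thus be technical in part.

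BMPs are secreted ligands of the TGF-beta superfamily. They bind paired type I and type II receptors, which phosphorylate SMAD1, SMAD5 and SMAD9. These join SMAD4, enter the nucleus and switch on the ID genes, SMAD6 and, in hepatocytes, the iron hormone hepcidin (Hamp). SMAD6 feeds back to dampen the pathway. ID proteins carry a helix-loop-helix domain but no DNA-binding region, and they hold E proteins and other partners off DNA. In healthy liver, BMP2 and BMP6 come largely from sinusoidal endothelial cells and report iron stores to hepatocytes.

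Promoter sequence was read for the feedback gene Smad6, for the target gene Id2 and, as a contrast, for Smad9, whose level did not follow theirs. The windows come from RefSeq on GRCm38.p6 and reach from 250 bases before to 50 bases after the start site. They were found for 8 of the 10 genes, and for Id1 and Bmp2 none was listed. Capitals mark a searched motif, and each sequence runs 5′ to 3′ on the gene's own strand. The Smad6 stretch ends with the motif that spans the start site. The Id2 stretch is limited to 30 bases because 161 of the 250 bases before its start site overlap an annotated Id2 exon.
Smad6, chr9:64022056-64022309, minus strand: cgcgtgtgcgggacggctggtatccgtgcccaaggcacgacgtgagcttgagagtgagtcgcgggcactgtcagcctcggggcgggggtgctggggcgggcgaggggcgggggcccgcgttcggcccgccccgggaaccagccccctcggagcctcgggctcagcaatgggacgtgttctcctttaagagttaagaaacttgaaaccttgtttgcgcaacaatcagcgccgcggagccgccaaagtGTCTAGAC
Id2, chr12:25096306-25096335, minus strand: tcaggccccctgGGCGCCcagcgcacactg
Smad9, chr3:54755332-54755581, plus strand: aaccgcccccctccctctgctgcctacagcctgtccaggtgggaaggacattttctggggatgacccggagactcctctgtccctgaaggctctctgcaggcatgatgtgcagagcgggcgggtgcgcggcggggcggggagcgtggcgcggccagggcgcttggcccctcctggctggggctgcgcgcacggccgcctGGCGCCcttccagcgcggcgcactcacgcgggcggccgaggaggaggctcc

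GTCTAGAC, the palindromic Smad binding element, began 4 bases before the Smad6 start site and was found in 0.213% of the 32851 windows of the same length. GGCGCC, a GC-rich sequence that SMAD1 and SMAD5 can bind, began 231 bases before the Id2 start site and 51 bases before that of Smad9. It was also at 1 place near the Smad5 starts, seen in 2 of the 3 Smad5 windows, which overlap each other there. It was in 11.9% of all windows. CAGAC, another Smad sequence, was found in the windows of Id3, Bmp6 and Smad5 and in 49.6% of all windows. CACGTG, the E-box that MYC can bind, was in the windows of Bmp6 and Bmp4 and in 7.15% of all windows. For Bmp6 and Id3, all 250 bases before the start site overlap annotated exon, so the Bmp6 and Id3 matches lie in exon. No such overlap was found for Bmp4. The bases before the start site overlap exon in part for Smad1 and for some of the Smad5 windows. TGACGTCA, a cAMP response element, was in none of the 10 windows and in 1.79% of all. All windows were searched on both strands, matches of different motifs did not overlap, and a match of letters is a description of the window only.

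Depth was similar between libraries, with gene totals from 41547938 to 51939623 counts. Tumour 10 stood apart: its correlation with the other libraries across expressed genes was 0.832 to 0.847, against 0.888 to 0.955 among tumours 1, 5 and 9. Tumour 10 was the lowest of the 4 for 32.4% of expressed genes and the highest for 35.8%. The levels below are CPM scaled by TMM, a method that balances the bulk of genes between libraries. Intervals are exact 95% Poisson intervals and cover counting error only.

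Myc had 6.92 ± 1.56 CPM and Pmepa1 3.71 ± 2.73 CPM (SD, n = 4 each). Pmepa1 was lowest in tumour 10, at 0.922 CPM against 2.43, 7.28 and 4.19 in tumours 1, 5 and 9. These are reads on the mouse genes, and the labels do not say whether the delivered sequences are mouse or human.

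The ID genes had the highest summed level per kilobase of transcript of the 3 families, 53.5 ± 17.9 CPM per kilobase against 26.4 ± 3.7 for the receptor-regulated Smads (SD, n = 4 each), and tumour 10 had the least of each ID gene. Id2 (chromosome 12, 25093799 to 25097140, minus strand) stood at 50.02, 60.6, 49.99 and 25.3 CPM in tumours 1, 5, 9 and 10, on average 46.5 ± 14.97 (SD, n = 4). Tumours 1 and 9 overlapped within counting error, tumour 5 lay slightly above them, and tumour 10 lay 1.97-fold below the lowest of the others. Id2 is the ID protein best known as a partner of the retinoblastoma protein in growing cells.

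Id1 (chromosome 2, 152736251 to 152737410, plus strand), a classic direct BMP target, had 14.1, 12.3, 6.25 and 4.25 CPM, a mean of 9.24 ± 4.74 (SD, n = 4). Tumours 1 and 5 were high and overlapped within counting error, and tumours 9 and 10 were low, each apart from its neighbour. Id3 (chromosome 4, 136143497 to 136145755, plus strand), which acts in lymphocyte and vessel development as well as in BMP responses, took another order. Its levels were 10.1, 5.09, 8.38 and 3.15 CPM, a mean of 6.68 ± 3.14 (SD, n = 4). The 4 intervals did not overlap, so that tumour 9 was above tumour 5 for Id3 and below it for Id1.

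Per kilobase of transcript, the scale used here to compare levels between genes, Id2 made up 69.0 ± 5.7% of the 3 ID genes, Id1 18.0 ± 4.8% and Id3 13.1 ± 3.9% (SD, n = 4 each). The summed ID level was 65.1, 66.2, 54.8 and 27.8 CPM per kilobase in tumours 1, 5, 9 and 10. Id2 led in every tumour, from 60.4% in tumour 1 to 72.0% in tumour 5. Tumour 10 thus had the lowest sum with a make-up inside the range of the others. Genes with transcripts under 1500 bases, as the 3 ID genes are, had a median deviation from the 4-tumour mean of 0.27 log2 CPM in tumour 10, while Id1, Id2 and Id3 lay at -0.95, -0.81 and -0.94 there.

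**Figure D1:**
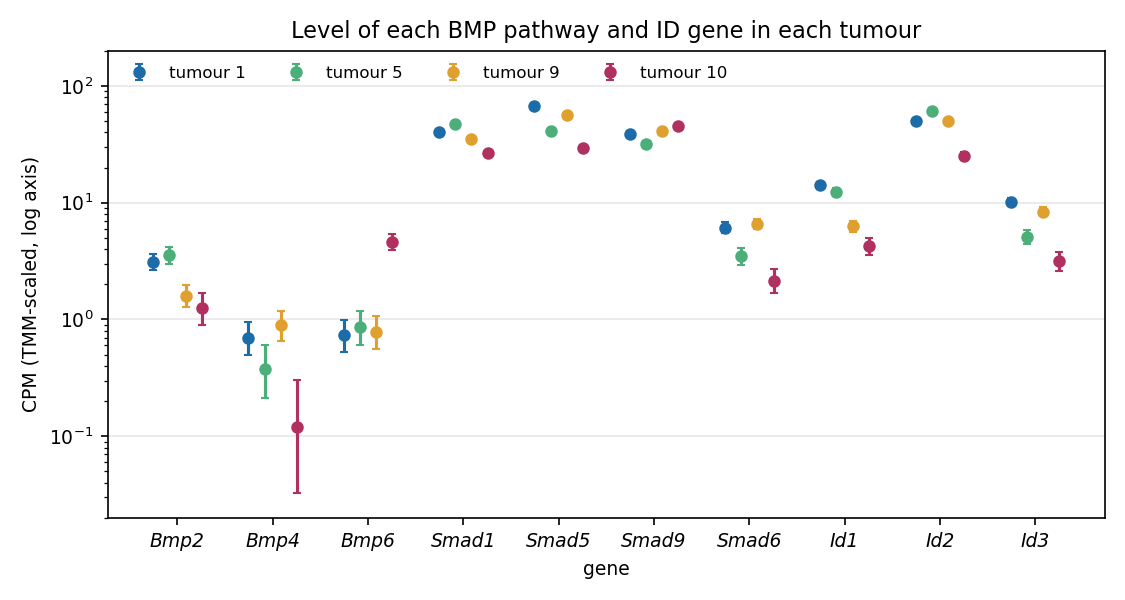
CPM on a log axis for each of the 10 genes, with 1 point per tumour and bars for the exact 95% Poisson interval of its count. Tumour 10 is the lowest point for all genes but Bmp6 and Smad9; Bmp6 reaches 4.64 CPM there against 0.734 to 0.864 in the others.

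The receptor-regulated Smads differed in how steady they were. Smad1 (chromosome 8, 79338395 to 79399518, minus strand) stood at 40.1, 46.8, 35.1 and 26.4 CPM in that tumour order, on average 37.1 ± 8.6 (SD, n = 4). Smad5 (chromosome 13, 56703010 to 56742377, plus strand) had 66.9, 41.3, 56.1 and 29.2 CPM, a mean of 48.3 ± 16.5. Tumour 5 was thus the highest for Smad1 and the third for Smad5, and tumour 10 was the lowest for both. Smad9 (chromosome 3, 54755582 to 54801257, plus strand) had 39.1, 31.9, 41.2 and 45.0 CPM, a mean of 39.3 ± 5.5. It was the least variable of the 10 genes by this scaling, with an SD of 0.21 log2 units. Tumour 10 was its highest by TMM, with an interval that overlapped that of tumour 9; by total counts, tumour 9 was the highest, at 45.3 CPM against 36.1 in tumour 10.

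SMAD1, SMAD5 and SMAD9 are close relatives that BMP receptors phosphorylate, and SMAD9 is the weakest activator of the 3. Per kilobase, Smad1 led with 45.9 ± 7.2% of the summed level of these genes, followed by Smad9 with 28.4 ± 7.8% and Smad5 with 25.7 ± 5.9% (SD, n = 4 each). In tumour 10 the Smad9 share was 39.5%, against 21.8 to 28.2% in the others, and the Smad5 share was 19.7%. Smad9 thus stood nearly level with Smad1 in that tumour, where Smad1 held 40.8%. The 3 Smad5 rows of the tables carry nearly the same reads (3827, 3819 and 3825 counts in tumour 1), and their sum would count these reads repeatedly.

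Smad6 (chromosome 9, 63953076 to 64022059, minus strand), an inhibitory Smad that BMP signalling induces, was far lower than Smad1, Smad5 and Smad9. Its levels in tumours 1, 5, 9 and 10 were 6.10, 3.48, 6.59 and 2.14 CPM, on average 4.58 ± 2.12 (SD, n = 4). Tumours 1 and 9 overlapped within counting error, tumour 5 lay below them and tumour 10 lowest. Of all pairs among the 10 genes, Smad6 and Id3 were the closest in profile, at a Euclidean distance of 0.27 in centred log2 CPM over the 4 tumours. Bmp2 and Id1 were the next pair, at 0.34, and Id3 and Smad5 followed at 0.40. Such distances over 4 tumours are descriptions.

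The ligands were the least abundant genes of the set. Bmp2 (chromosome 2, 133552159 to 133562885, plus strand) stood at 3.11, 3.55, 1.60 and 1.25 CPM in the same tumour order, on average 2.38 ± 1.12 (SD, n = 4). Tumours 1 and 5 overlapped within counting error, as did tumours 9 and 10, and the first pair was above the second. Bmp4 (chromosome 14, 46383520 to 46390669, minus strand), a ligand of mesenchymal cells, rested on 40, 16, 48 and 4 counts. Its levels of 0.699, 0.374, 0.893 and 0.119 CPM had intervals that overlapped between each neighbouring pair in that order of size. With 4 counts, the interval of Bmp4 in tumour 10 ran from 0.0324 to 0.305 CPM.

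Bmp6 (chromosome 13, 38345107 to 38500302, plus strand), the main iron-responsive ligand of the liver, went the other way. Its levels in tumours 1, 5, 9 and 10 were 0.734, 0.864, 0.782 and 4.64 CPM, from 42, 37, 42 and 156 counts. The first 3 tumours overlapped within counting error, and tumour 10 lay 5.37-fold above the highest of them. Since Bmp6 passed the filter only through tumour 10, this lead is a description. Bmp6 made up 82.4% of the summed ligand level per kilobase there, against 19.9 to 26.6% elsewhere, where Bmp2 led or matched Bmp4. The last 224 bases of the annotated Bmp6 gene overlap Txndc5 on the other strand, and whether counting used strand is not given in the sources used here. Txndc5 had 240, 256, 329 and 304 CPM and was highest in tumour 9.

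**Figure D2:**
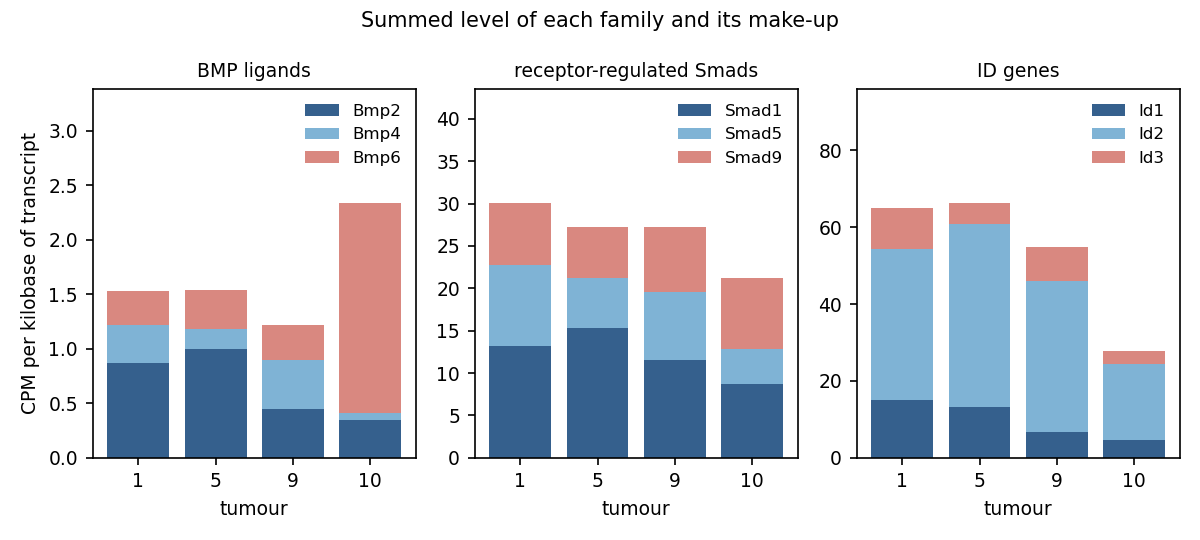
Stacked bars of CPM per kilobase of transcript in each tumour for the BMP ligands, the receptor-regulated Smads and the ID genes, each panel with its own axis from 0. The ligand bar of tumour 10 is mostly Bmp6 and the tallest, at 2.33, while its Smad and ID bars are the lowest, at 21.2 and 27.8.

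Ordered by mean level per kilobase, the genes ran from Id2 (36.6 ± 11.8 CPM per kilobase) through Smad1 (12.2 ± 2.8), Id1 (9.90 ± 5.07), Smad9 (7.31 ± 1.02), Id3 (7.01 ± 3.30) and Smad5 (6.92 ± 2.37) to Smad6 (1.54 ± 0.71). The ligands closed the order, with Bmp6 at 0.728 ± 0.798, Bmp2 at 0.667 ± 0.315 and Bmp4 at 0.261 ± 0.172 (SD, n = 4 each). Id2 was above Smad1, Smad5 above Smad6 and Bmp2 above Bmp4 in 4 of 4 tumours. Bmp6 was above Bmp2 in 1 of 4, tumour 10. From Smad1 to Smad5, neighbours in this order differed by less than the larger of their SDs, and so did Bmp6 and Bmp2. Among expressed genes of the series, Id2 lay at percentile 80.5 by this scale and Bmp2 at percentile 5.8.

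All 9 expressed genes of the set varied between tumours beyond counting error by a Poisson heterogeneity test with Benjamini-Hochberg adjustment over all genes, and so did 98.7% of all expressed genes. With 5% technical variation added, all 9 still passed, against 94.1% of all, with an adjusted p of 0.000361 for Smad9 in this chi-square test. An SD of at least 1 log2 unit was reached by 1 of the 9, against 16.6% of expressed genes, and by none without tumour 10. That gene was Bmp6, whose place among the 9 rests on its tumour 10 value, so its spread is tied to the filter. The heterogeneity shares lie near the background and say nothing particular about the set.

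Tumour 10 was the lowest of the 4 for 7 of the 9 expressed genes, namely Bmp2, Id1, Id2, Id3, Smad1, Smad5 and Smad6, where 32.4% of all expressed genes were lowest in it. Bmp4, below the filter, was lowest there too, and Bmp6, which entered through tumour 10, could not be. In tumours 1, 5 and 9, 1, 1 and 0 of the 9 were lowest, against 21.8, 20.3 and 25.5% of all expressed genes. The highest level fell in tumour 1 for 3 of them, in tumour 5 for 3, in tumour 9 for 1 and in tumour 10 for 2, against 21.4, 21.2, 21.6 and 35.8% of all. The 2 were Bmp6, whose place the filter had fixed, and Smad9, which was highest in tumour 9 by total counts. Tumour 10 was the lowest for 7 of 9 by total counts as well, a scaling that places 53.3% of all genes lowest in it. The median deviation of the 9 genes in tumour 10 was -0.78 log2 CPM, against 0.02 for all expressed genes, and 0.51, -0.16 and 0.08 in tumours 1, 5 and 9. None of the 9 lay 2-fold or more below the next lowest tumour in tumour 10, where 6.66% of expressed genes did.

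Each tumour was set against the rest by edgeR's quasi-likelihood test, which is 2-sided, with adjustment across every gene and tumour at once. None of the 9 passed, and 0% of all genes did. Adjusted for tumour 10 alone, 230 genes passed there, and 123 did with no filter on low counts, with none of the 9 among either. At an unadjusted p of 0.05, Id2 was lower in tumour 10, where 13.9% of all genes were higher and 8.23% lower by this rule, 22.1% in either direction. Bmp6 also lay under that p, but the filter had fixed its direction, and its value is a description. None of the set passed in tumours 1, 5 and 9, against 0.716, 0.922 and 5.66% of all genes. The edgeR difference of tumour 10 from the others was 2.55 log2 units for Bmp6 (adjusted p = 0.403) and -1.08 for Id2 (adjusted p = 0.408). DESeq2 called 1 of the 9, Id2 in tumour 10, beside 1371 genes in all, and limma-voom called none. The lone tumour is assumed to vary as the rest do, so such a test describes 1 library.

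**Figure D3:**
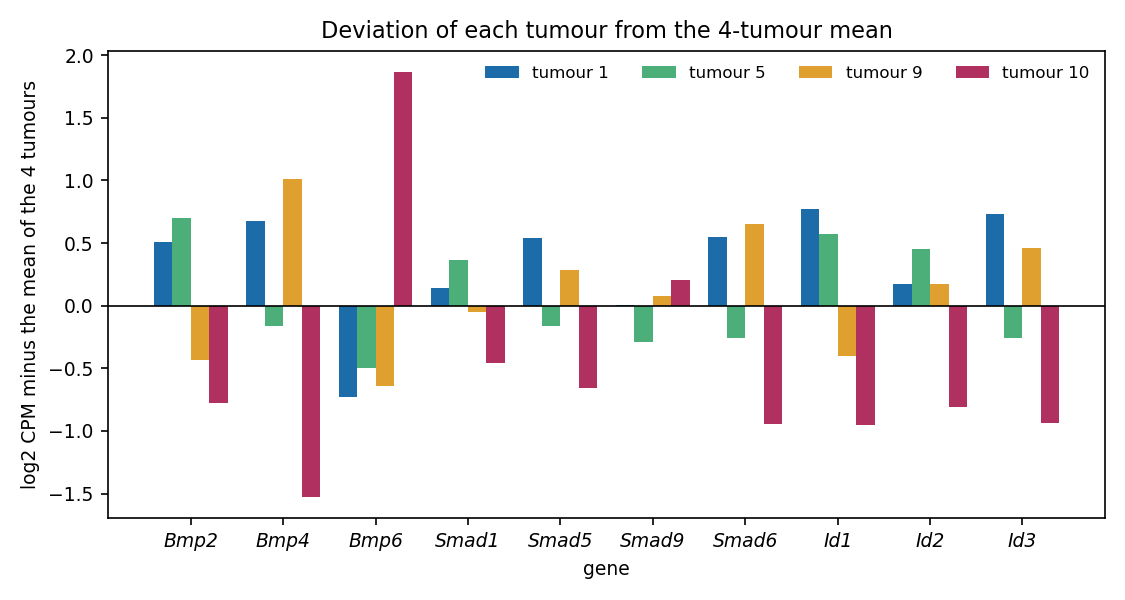
Bars give the deviation of each tumour's log2 CPM from the mean of the 4 tumours for each gene. Tumour 10 lies below 0 for 8 of the 10 genes and above it for Bmp6 (1.87) and Smad9 (0.21).

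Receptors for BMPs were present and steadier than the ligands. Of 7 receptor genes, 6 were expressed, none with an SD of 1 log2 unit or more. The type I receptor Bmpr1a had 71.7, 71.1, 48.6 and 36.6 CPM in tumours 1, 5, 9 and 10, and the type II receptor Bmpr2 had 38.6, 28.8, 37.2 and 19.5. Tumour 10 was the lowest for both. Of the 6 receptors, 3 were lowest in tumour 10 and 3 in tumour 5, against 32.4 and 20.3% of all expressed genes. Acvrl1, an endothelial receptor, varied most, with 3.77, 3.34, 7.65 and 7.37 CPM, and Bmpr1b had no count in any tumour.

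Other ligands and secreted antagonists were mostly scarce. Of 11 further ligand genes, 4 were expressed, all with an SD above 1 log2 unit, against 16.6% of expressed genes. Gdf2, 1 of the 4, passed the filter only through tumour 1, so its spread is tied to the filter. Bmp8b had 92.4, 1.26, 34.3 and 45.0 CPM, so that tumour 5 was far below the rest, and Bmp7 had 1.80, 1.31, 7.67 and 0.238 CPM, highest in tumour 9. Of 13 antagonist genes, 3 were expressed. Twsg1, a modulator of BMP binding, was steady at 33.9 ± 2.6 CPM (SD, n = 4), and Chrd, which traps BMPs, had 5.78, 1.17, 3.82 and 4.34 CPM. Fst, follistatin, had 3.43 CPM in tumour 1 and 0 counts in tumour 10, where up to 0.0892 CPM would be missed. Fst passed the filter only through tumour 1, so its high level there is a description.

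Of 7 co-receptors and iron sensors, 5 were expressed, and 3 of the 5 were highest in tumour 10, where 35.8% of all genes were; hepcidin was lowest there, and none passed the adjusted test. Hemojuvelin (Hjv), a BMP co-receptor, had 52.2, 58.7, 108 and 175 CPM in tumours 1, 5, 9 and 10, and Tfr2, the transferrin sensor, had 117, 82.6, 164 and 330. Tmprss6, the protease that cleaves hemojuvelin and is itself BMP-responsive, had 28.9, 35.5, 42.1 and 291 CPM. Hamp, a direct BMP target, had 48.1, 10.7, 39.2 and 1.22 CPM. Its tumour order, 1, 9, 5, 10, was that of Id3 and Smad5. Neo1, which binds hemojuvelin, also ran low in tumour 10, with 29.3, 5.60, 12.1 and 0.892 CPM. Of 11 other BMP target genes, 5 were expressed. In tumour 10, 1 of them (Hamp) was lowest and 2 were highest, against 32.4 and 35.8% of all expressed genes. The 2 were Tmprss6 and Hamp2, and Hamp2 passed the filter only through tumour 10.

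**Figure D4:**
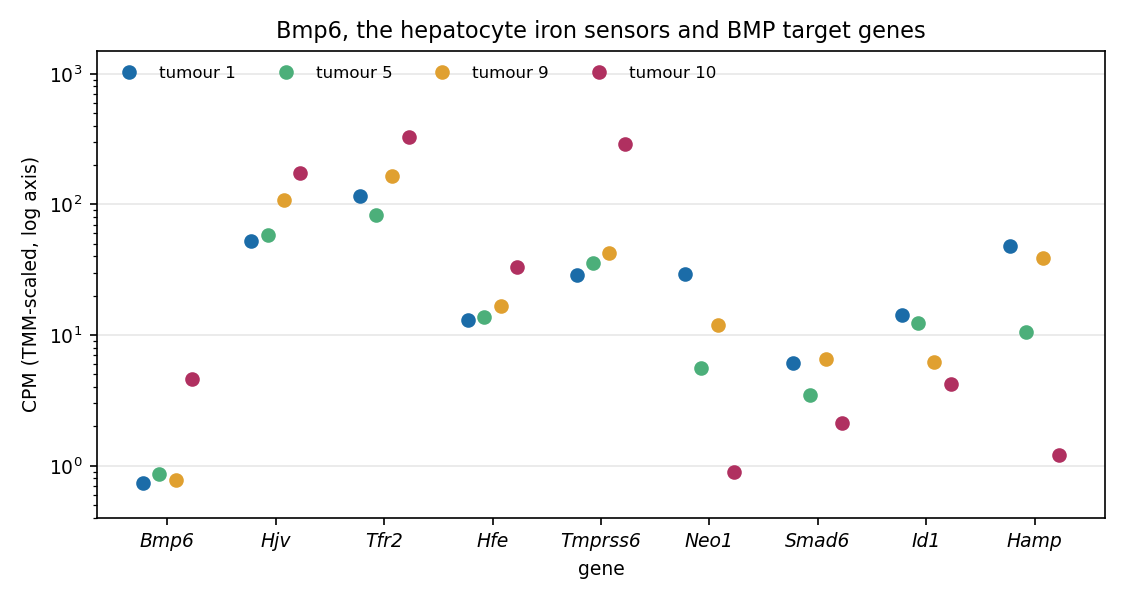
CPM on a log axis, 1 point per tumour, for Bmp6 and for iron-sensing genes and BMP target genes chosen from their lists. Of the 5 expressed genes on the list of other BMP targets, 1 was lowest in tumour 10 and 2 were highest. Tumour 10 is the highest point for Bmp6, Hjv, Tfr2, Hfe and Tmprss6 and the lowest for Neo1, Smad6, Id1 and Hamp; Hfe, a partner of Tfr2, was chosen after its values were seen and has 33.4 CPM in tumour 10 against at most 16.6.

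Inside the cell, the 18 partners and brakes of the pathway were all expressed, with no SD of 1 log2 unit or more. Fkbp1a, which keeps type I receptors silent, had 403, 416, 278 and 340 CPM, and Tob1, which restrains BMP Smads, had 141, 169, 106 and 286. Bambi, a decoy receptor induced by BMP, varied most, with 4.04, 4.18, 1.68 and 0.981 CPM, the tumour order of Bmp2. Smad4 and Smad7 were named after their values were seen. Smad4, the shared partner, had 80.0 ± 7.9 CPM (SD, n = 4), and Smad7, the other inhibitory Smad, had 13.3, 4.88, 7.78 and 13.3. Smad7 was thus not low in tumour 10, unlike Smad6.

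Over the 70 other pathway genes, all with a row in the tables, 44 were expressed, and 0 passed the adjusted edgeR test in any tumour. At an unadjusted p of 0.05, 9 were higher and 8 lower in tumour 10, against 13.9 and 8.23% of all genes. By the same rule, 1 passed in tumour 5 and 0 in tumours 1 and 9. Tumour 10 was the lowest for 18 of the 44 and the highest for 11, against 32.4 and 35.8% of all expressed genes. The median deviation of the 44 there was -0.03 log2 CPM.

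Markers of other cells moved with some of these values. Hepatocyte markers summed to 15030, 16340, 20960 and 40070 CPM in the usual tumour order. Of them, 8 of 11 were highest in tumour 10, against 35.8% of all expressed genes, with Alb at 13400 CPM against at most 5594. Stellate cell and fibroblast markers summed to 97.7 CPM in tumour 10 and to 360, 248 and 406 in the others. Of these markers, 11 of 12 were lowest in tumour 10, against 32.4% of all expressed genes, with Col3a1 at 31.9 CPM against at least 101. Their part in the low ID, Smad6 and Bmp4 levels or the high Bmp6 level was not tested. Endothelial markers, of which 12 of 13 were expressed, summed to 139, 130, 222 and 151 CPM. Their median deviation in tumour 10 was -0.04 log2 CPM, and the highest marker, Stab1, had 29.9, 23.6, 57.3 and 24.3 CPM. The list was not uniform, and its members named next were picked with their values known. Of the sinusoidal markers, Stab2, Lyve1, Oit3 and Clec4g were lowest in tumour 10, and Stab1 and Fcgr2b in tumour 5. Lyve1 had 6.54, 2.87, 6.09 and 0.238 CPM, and Oit3 had 4.39, 1.07, 1.47 and 0.297. Fcgr2b had 4.14, 0.911, 6.66 and 2.56 CPM. Clec4g was below the filter, with 1 count in tumour 10. Flt1 and Emcn were highest there, Flt1 with 7.43, 7.40, 12.2 and 16.4 CPM. The part of these markers in the Bmp2 and Bmp6 levels was not tested. In bulk RNA, fewer cells of a type and less RNA per cell cannot be told apart.

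Macrophage markers summed to 950 CPM in tumour 9 and to 215 to 394 in the others, led by Cd5l at 431 CPM in tumour 9. The Kupffer cell markers Clec4f, Vsig4, Marco and Timd4, chosen after their values were seen, were instead highest in tumour 1 and lowest in tumour 10. Timd4 was below the filter of a mean of 1 CPM. Of the 10 expressed genes of the list, 3 were highest in tumour 1 and 7, with Cd5l among them, in tumour 9. The shares of all expressed genes were 21.4 and 21.6%. Clec4f had 20.7, 2.99, 0.745 and 0.208 CPM and Marco had 8.67, 1.07, 2.68 and 0.208. Id1 and Id3 were also highest in tumour 1 and lowest in tumour 10. So were Lyve1 and Oit3 of the endothelial list and Acta2 of the stellate list, so this is not particular to Kupffer cell markers. The part of any of these cells in the Id1 and Id3 levels was not tested. Neutrophil and erythroid markers were highest in tumour 9, at 550 and 698 CPM in sum, with S100a9 at 140 and Hbb-bs at 366 CPM. Bile duct and progenitor markers summed to 51.2, 79.4, 15.5 and 13.9 CPM in the usual tumour order, led by Spp1 with 33.5 CPM in tumour 1. T and NK cell markers summed to at most 4.80 CPM, with Cd4 at 1.28 ± 0.99 (SD, n = 4). None of the marker genes was at 0 in any tumour.

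The genes whose profiles lay nearest to the 3 most variable members were found by Euclidean distance over the 4 tumours. For Bmp6 they were Slc16a13, a transporter of the monocarboxylate family (distance 0.0845), Cyp4v3, a fatty acid hydroxylase (0.12), and Tymp, thymidine phosphorylase (0.14). All 3 were highest in tumour 10, which their choice by likeness to Bmp6 had fixed, and Tymp had 316 CPM there against at most 54.5. For Id1 they were Cic, a transcriptional repressor (0.058), the clock gene Per3 (0.0941) and the imprinted gene Mest (0.12). For Id3 they were Zmym1 (0.0726), Slc35g2 (0.12) and Nfya, a CCAAT-binding factor (0.12).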

How the data were processed

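Poly-A RNA from 4 tumours of 1 group was sequenced after TruSeq library preparation, per the labels' protocols. The submitters' processing notes list FastQC 0.11.8 and GRCm38, with aligner, counting program and strand use not given in the sources used here. The deposited count column holds whole reads for 33984 RefSeq transcript rows. The deposited FPKM column equalled count over file total and a transcript length, whole within 0.01 bases, and the deposited TPM column summed to 1000000; both served only to check units and recover lengths. Row totals were 1.434 to 1.487 times the gene totals, because reads were counted on several isoforms, so 1 row per symbol was used.

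Counts were scaled by TMM (factors 1.102, 1.031, 1.098 and 0.8018 in tumours 1, 5, 9 and 10) in R 4.3.3 with edgeR 4.0.16; log2 CPM adds a prior count of 2. At these depths 3 counts equal 0.0524, 0.07, 0.0558 and 0.0892 CPM. Genes with a mean of at least 1 CPM were tested by Poisson heterogeneity and by edgeR's quasi-likelihood test of each tumour against the other 3, called at a Benjamini-Hochberg adjusted p under 0.05. Alternatives were limma 3.58.1 (voom), DESeq2 1.42.0, other scalings, the sum over rows, a prior count of 0.5, no filter and leaving out each tumour. The test of tumour 10 was also run on simulated counts for 13129 genes, adjusted for that tumour alone. At a dispersion of 0.3, the common value estimated from these data, it recovered 5% of 4-fold and 77% of 16-fold changes. At a dispersion of 0.05, a value set by hand, it recovered 95 and 100%. The main adjustment, over all 4 tumours, was not simulated.

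The members and lists were chosen with earlier results of these data known. Genes named were all members, Myc and Pmepa1, per pathway list the 2 expressed genes with the highest mean CPM and the most variable one, the most abundant gene of each marker list, and the 3 genes nearest in profile to the 3 most variable expressed members. Adgre1 and Hjv were found under older symbols through RefSeq synonyms. Gene positions were taken from GENCODE M21 (GRCm38).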

Additional observations from a re-analysis of the deposited data

Results flagged for a closer look

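Bmp6 stood apart in tumour 10. On the log2 CPM scale, the gap between tumour 10 and the nearest other tumour was 0.914 of the whole range of the 4 tumours, beyond the 95% critical value of Dixon's ratio for 4 samples. It was the only one of the 10 genes so marked. Chance alone marks about 1 in 20 groups, so 1 mark among 10 genes can arise by chance and is a description.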

How the results depend on the processing

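The mean levels of the 10 genes moved by less than 1 SD in 77 of 80 alternatives. Most of these outcomes were fixed in advance and are no sign of robustness. Leaving out 1 of 4 tumours cannot move a mean by 1 SD, and rescaling libraries leaves a 4-tumour mean nearly unchanged. The other 3 came from summing transcript rows, where the mean log2 CPM was 6.56 for Smad5, 4.63 for Smad1 and 4.74 for Smad9, against 5.53, 5.18 and 5.29; the sum counts the Smad5 reads repeatedly and enlarges every library total. The number of genes beyond counting error was 9, 10 with no filter on low counts, and 8 to 9 without each tumour. The number with an SD of at least 1 was 1, 2 with no filter (Bmp4 added), and 0 to 1 without each tumour, 0 without tumour 10. In tumour 10 against the others, DESeq2 called 1 gene and all other alternatives 0. Tumour 10 stayed lowest for 7 expressed genes under each scaling and without tumour 1, 5 or 9, alternatives chosen after seeing the data; without tumour 10, tumours 5 and 9 were lowest for 4 each. Total counts in place of TMM move the median gene of tumours 1, 5, 9 and 10 by 0.14, 0.04, 0.13 and -0.32 on the log2 scale. Depth limits Bmp4 in tumour 10 to 4 counts. No paired analysis was possible because the series has 1 group.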

Other observations

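Of the 3 E proteins that ID proteins hold off DNA, 2 were lowest in tumour 10, as the ID genes were, and none passed the adjusted edgeR test. Tcf3, which encodes E2A, had 115, 117, 83.6 and 47.8 CPM in tumours 1, 5, 9 and 10, and Tcf12 had 51.0, 52.7, 45.8 and 31.4. Tumour 10 was the lowest for both, as it was for 32.4% of all expressed genes. Tcf4 was steady at 33.6 ± 1.8 CPM (SD, n = 4) and was named after its values were seen. Per kilobase of transcript, the 3 E proteins summed to 49.9, 51.0, 39.8 and 25.4 CPM per kilobase. The ratio of summed ID to summed E protein level was 1.30, 1.30, 1.38 and 1.09 in these tumours, a mean of 1.27 ± 0.12 (SD, n = 4). The ratio spanned a narrower range than the ID sum itself, which ran from 27.8 to 66.2 CPM per kilobase.

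Hamp2, the second mouse hepcidin gene, did not follow Hamp. It had 0.891, 0.280, 0.130 and 3.598 CPM in tumours 1, 5, 9 and 10, from 51, 12, 7 and 121 counts, and was highest where Hamp was lowest. The transcripts of this gene pair are alike and how shared reads were counted is not given, so both levels are uncertain. The comparison was chosen after the values were seen, and Hamp2 passed the filter only through tumour 10.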
